A study of Mus musculus with 22 samples.

Results

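The genes described here mark spinal motor neurons: Chat, Slc5a7, Slc18a3, Mnx1, Isl1, Prph, Chodl, Ret and Calca. They were chosen by name as known motor neuron genes, 9 in all, and 8 of them were measured, out of 18193 genes on the array. Each gene is represented by the probe set with the highest mean signal among those annotated to that gene alone. Calca was matched to no probe set and was not analysed here. RNA of wild-type mice (strain C57Bl/6, aged 10 to 12 weeks) came from the spinal cord, 24 h or 48 h after cross-clamping of the aorta (7.5 min) or sham surgery. Cord above the T6 level (rostral) and below it (caudal) was hybridised to separate Affymetrix arrays, which measure RNA with short probes grouped into probe sets. There were 4 rostral and 3 caudal sham arrays, 3 rostral and 3 caudal arrays at 24 h, and 4 rostral and 4 caudal arrays at 48 h. Nothing in the labels states that replicate arrays came from separate animals, so the p-values here reflect array-to-array spread, which may be technical. The labels name the tissue as spinal cord and say nothing of roots or ganglia.

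Motor neurons are the cholinergic cells of the ventral horn whose axons leave the cord to drive muscle. They make acetylcholine with choline acetyltransferase (Chat), take choline back up through the high-affinity transporter Slc5a7, and load the product into vesicles through Slc18a3. Mnx1 and Isl1 are homeodomain transcription factors that set motor neuron identity in the embryo, Prph encodes the intermediate filament peripherin, Ret is the receptor tyrosine kinase for GDNF family trophic factors, and Chodl encodes chondrolectin, a membrane protein enriched in fast motor neurons. Isl1, Prph and Ret are also expressed by sensory neurons of the dorsal root ganglia. Calca encodes the peptide CGRP.

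The start regions of the genes are shown because Mnx1 and Isl1 proteins bind DNA through homeodomains, whose core motif is TAAT. The 250 bases before the RefSeq transcription start (build GRCm38.p6) were searched on both strands for TAAT, for TGACG (a partial cyclic AMP response element), for TGANTCA (the AP-1 motif) and for CANNTG (the E-box), with overlapping matches allowed within and between motifs. A window was held for 8 of the 9 genes, with none for Ret. TAAT was present in 5 of the 8 windows, against 54.9% of all 32851 windows, and the counts per window were 2 for Isl1 and Chodl, 1 for Slc18a3, Mnx1 and Calca, and 0 for Chat, Slc5a7 and Prph. TGACG was present in 4 of the 8 windows (17.8% of all windows), CANNTG in 7 (66.2%) and TGANTCA in 0 (6.75%). A match is a string of letters in the window and shows no binding. The windows of the 5 genes that were called in a comparison below and have a window are printed 5′ to 3′ on the gene's own strand, with TAAT or its reverse complement ATTA in capitals. They lie at chr16:78930698-78930947 on the plus strand for Chodl, at chr14:32464851-32465100 on the minus strand for Slc18a3, at chr13:116309689-116309938 on the minus strand for Isl1, at chr17:54299035-54299284 on the minus strand for Slc5a7, and at chr15:99054924-99055173 on the plus strand for Prph. The Prph and Slc5a7 windows hold no capital letter because they have no match.
Chodl: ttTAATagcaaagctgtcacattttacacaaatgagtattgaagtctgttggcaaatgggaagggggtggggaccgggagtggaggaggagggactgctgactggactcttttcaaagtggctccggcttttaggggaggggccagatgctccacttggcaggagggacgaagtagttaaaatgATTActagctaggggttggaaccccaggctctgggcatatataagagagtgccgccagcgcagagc
Slc18a3: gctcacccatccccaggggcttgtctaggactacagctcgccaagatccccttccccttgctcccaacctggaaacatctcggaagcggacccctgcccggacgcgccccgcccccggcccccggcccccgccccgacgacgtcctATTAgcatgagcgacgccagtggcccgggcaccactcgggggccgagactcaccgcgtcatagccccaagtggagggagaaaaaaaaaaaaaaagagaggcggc
Isl1: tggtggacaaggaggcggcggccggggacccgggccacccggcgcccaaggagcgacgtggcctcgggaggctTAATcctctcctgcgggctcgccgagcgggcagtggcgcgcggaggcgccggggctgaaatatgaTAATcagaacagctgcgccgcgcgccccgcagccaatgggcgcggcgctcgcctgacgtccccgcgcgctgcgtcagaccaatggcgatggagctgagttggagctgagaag
Prph: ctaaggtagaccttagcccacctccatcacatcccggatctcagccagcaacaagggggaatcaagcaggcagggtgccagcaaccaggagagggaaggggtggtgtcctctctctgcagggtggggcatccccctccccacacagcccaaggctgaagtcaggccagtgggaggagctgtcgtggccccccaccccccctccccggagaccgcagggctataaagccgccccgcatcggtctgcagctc
Slc5a7: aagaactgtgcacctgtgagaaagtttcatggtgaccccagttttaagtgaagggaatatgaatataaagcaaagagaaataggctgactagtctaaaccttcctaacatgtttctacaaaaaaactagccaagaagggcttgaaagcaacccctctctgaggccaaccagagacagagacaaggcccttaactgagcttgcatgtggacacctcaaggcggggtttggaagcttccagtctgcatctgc

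Several arrays stood apart from the others. On caudal array 271 (48 h), the signals were compressed: the standard deviation (SD) over probe sets was 2.05, against 2.21 to 2.27 on the other 21 arrays. On that array the median log2 difference from the sham mean over 14 general neuronal genes was -1.16, against -0.36 to -0.12 on the other 3 caudal 48 h arrays. Caudal arrays 274 (48 h) and 280 (sham) had 5′ Gapdh control signals lower than the 3′ ones by a log2 difference of -1.05 and -0.68, against -0.21 to 0.04 on the remaining arrays, a measure on which degraded RNA reads low. The arrays numbered 283 (24 h) went against their region labels. Hoxc10, a gene of the lumbar cord, read 10.14 on the rostral-labelled array 283 and 5.67 on the caudal-labelled one, where the other rostral arrays read 5.32 to 6.22 and the other caudal arrays 9.19 to 10.48.

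The level of the motor neuron genes set what could be read from them. All levels below are log2 signals. Slc18a3, Prph, Chodl and Ret lay above the median of the array on at least 20 of the 21 grouped arrays. Chat and Mnx1 lay below that median on all 21 arrays, and Mnx1 lay below the lower quartile on 10 of them. Chat ranged from 5.61 to 6.30 and Mnx1 from 4.77 to 5.75 over the 21 arrays, and at such low signal a change may be compressed. Isl1 was below the median on 18 arrays and Slc5a7 on 5. In the plot of values by group, the 3 genes with the widest spread at 48 h below T6 are Slc18a3, Chodl and Slc5a7.

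**Figure D1:**
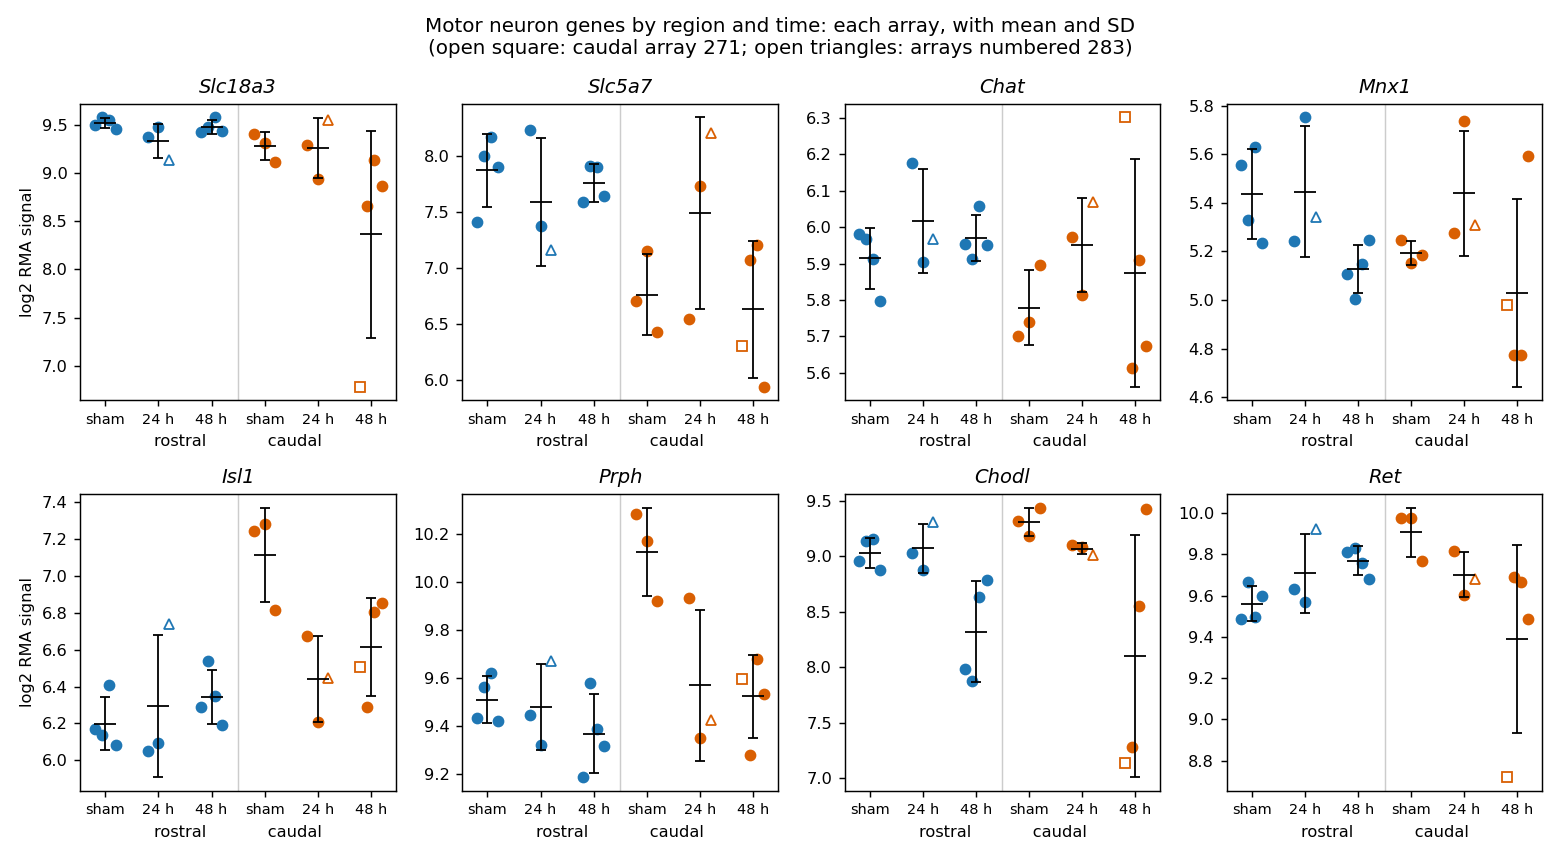
Log2 signal (vertical axis) of the 8 measured motor neuron genes, 1 panel per gene, with 1 point per array in each of the 6 groups of region and time (horizontal axis). Bars are group means with SD, the open square is caudal array 271 and open triangles are the arrays numbered 283. Slc18a3 was 6.78 on caudal array 271 and 8.66 to 9.14 on the other 3 caudal 48 h arrays, and Chodl spanned 7.14 to 9.42 in that group.

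At 48 h below T6, Prph, Chodl and Ret fell against sham and no motor neuron gene rose. A gene was called when its limma p-value, adjusted over all 18193 genes, was under 0.05. These 3 of 8 genes were called lower, against 7.02% of all genes called lower and 12.5% called in either direction. The median change of the 8 genes was -0.51 (log2), beside 0.00 for all genes, and -0.34 beside -0.04 without caudal array 271. In bulk cord, fewer motor neurons, less RNA per motor neuron and a changed share of other cells or tissue cannot be told apart. Of the 21 fits that left out 1 array, 11 called 1 gene, Prph, of the 8. Those were the fits without any one of rostral sham arrays 277 to 280, caudal sham arrays 279 and 280, caudal 24 h arrays 281 to 283, and rostral 24 h arrays 281 and 282. The fit without caudal sham array 278 called none, the fits without caudal 48 h array 273 or 274 called 5 each, and a fit of the caudal 48 h and sham arrays alone called none. Without both arrays numbered 283, 1 gene was called, again Prph.

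Chodl had the largest change of the 8 genes. Its log2 signal was 9.31, 9.18 and 9.44 on caudal sham arrays 278, 279 and 280, and 7.14, 7.28, 8.55 and 9.42 on caudal 48 h arrays 271, 272, 273 and 274. Arrays 271 and 272 were far below every sham array, array 273 was moderately below, and array 274 lay within the sham range. The change was -1.21 ± 0.37 (SE; 95% interval -1.999 to -0.43; adjusted p = 0.0406; n = 4 against 3). Without caudal array 271 it was -0.89 and was not called (adjusted p = 0.0884), and it was not called without caudal array 272 either (adjusted p = 0.0815). Without caudal array 274 the change was -1.66 and was called (adjusted p = 0.000464). Without caudal arrays 271, 274 and 280 it was -1.335 and was also called (adjusted p = 0.00647). Chodl was called in 16 of the 33 alternative settings.

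Prph fell by 0.60 ± 0.14 on the log2 scale (SE; 95% interval -0.90 to -0.30; adjusted p = 0.0111). Its signal was 10.28, 10.17 and 9.92 on caudal sham arrays 278 to 280, and 9.60, 9.28, 9.68 and 9.54 on caudal 48 h arrays 271 to 274. The groups did not overlap. The change was -0.63 without caudal array 271 (adjusted p = 0.00875), and so was as large without that array. Many of the 33 alternative settings left out only arrays of other groups and so left the change at -0.60. Prph was called in 30 of the 33. The exceptions were the fit without caudal sham array 278 (adjusted p = 0.0751), the fit of the compared groups alone (adjusted p = 0.221) and the mean of its 4 probe sets (-0.05; adjusted p = 0.694). The other 3 probe sets annotated to Prph had mean signals of only 5.19 to 6.34, and their changes were 0.05 to 0.22.

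Ret fell by 0.52 ± 0.17 (SE; 95% interval -0.87 to -0.17), with an adjusted p of 0.0496 that lay next to the threshold. Its signal was 9.97, 9.98 and 9.77 on the caudal sham arrays, and 8.72, 9.69, 9.67 and 9.48 on caudal 48 h arrays 271 to 274. All 4 arrays after clamping lay below all sham arrays, and array 271 was far below the other 3. Without array 271 the change was -0.29, with an adjusted p of 0.0454. Without it, Prph and Ret were the 2 of 8 genes called lower, against 8.88% of all genes. Ret was called in 10 of the 33 alternative settings. Prph and Ret were the genes whose arrays did not overlap, 2 of 8, where 11.1% of all genes were lower without overlap. The other Ret probe set read 8.46, 8.49 and 8.02 in sham and 6.75, 8.36, 8.37 and 7.52 at 48 h, a change of -0.57 that was not called (adjusted p = 0.145).

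Slc18a3, the vesicular acetylcholine transporter, did not pass the test against sham over all arrays. Its signal was 9.41, 9.31 and 9.12 on caudal sham arrays 278 to 280 and 6.78, 8.66, 9.14 and 8.87 on caudal 48 h arrays 271 to 274. Array 273 lay just above the lowest sham array, arrays 272 and 274 lay below it, and array 271 was low by itself. The change was -0.91 ± 0.35 (adjusted p = 0.0819), and -0.39 without caudal array 271 (adjusted p = 0.0611). With both arrays numbered 283 left out as well, the change of -0.39 was called (adjusted p = 0.0344; 7.82% of all genes were called lower in that fit). The sign was negative with and without array 271, and the size without it was far smaller.

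Isl1 read 7.25, 7.28 and 6.82 on the caudal sham arrays and 6.503, 6.29, 6.80 and 6.85 on caudal 48 h arrays 271 to 274. The groups overlapped slightly, at sham array 280 and array 274. Its change was -0.50 ± 0.18 (adjusted p = 0.0645), and its other probe set changed by -0.55 (adjusted p = 0.0213 in a fit of every probe set). Without caudal arrays 271, 274 and 280, Isl1 was called (-0.72; adjusted p = 0.01997). Slc5a7, the choline transporter, read 6.71, 7.15 and 6.43 in caudal sham and 6.30, 7.07, 7.21 and 5.94 on caudal 48 h arrays 271 to 274, and the groups overlapped. Its change was -0.13 (95% interval -0.88 to 0.61), and 0.21 without caudal arrays 271, 274 and 280. These 3 arrays were the lowest for Slc5a7 among the caudal arrays of those groups. Mnx1 changed by -0.16 (95% interval -0.53 to 0.20) and Chat by 0.10 (95% interval -0.18 to 0.37), both at low signal.

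**Figure D2:**
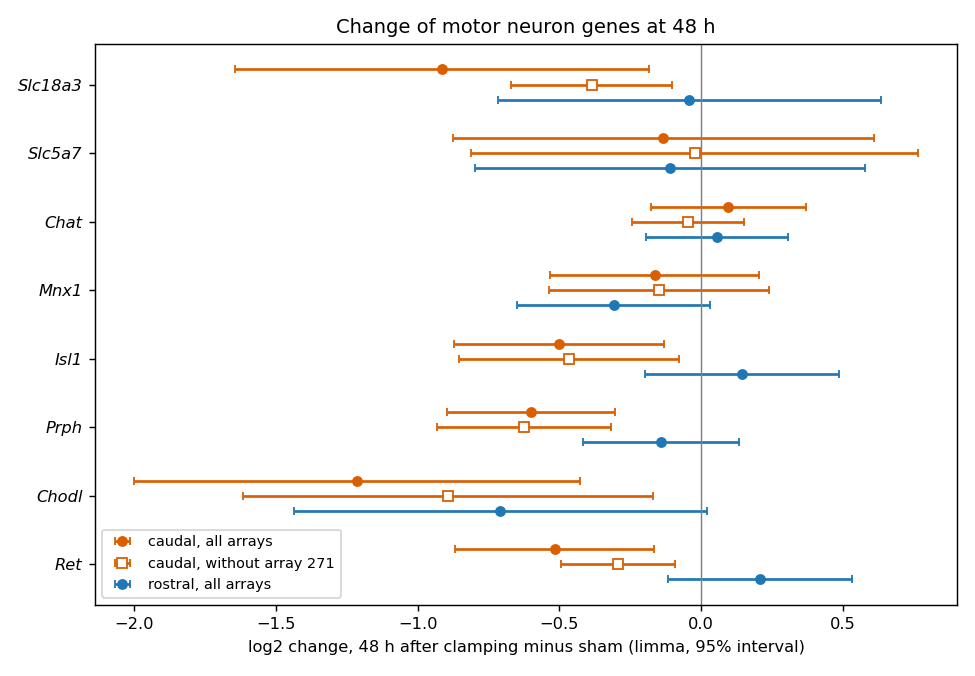
Log2 change at 48 h against sham (horizontal axis) of each motor neuron gene (vertical axis), below and above T6, from all 21 grouped arrays and, below T6, without caudal array 271. Points are limma estimates and bars are 95% intervals. Below T6, Chodl was at -1.21 with and -0.89 without array 271 and Slc18a3 at -0.91 and -0.39, whereas Prph was at -0.60 and -0.63.

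Markers of other cells moved in the same caudal 48 h arrays. Of 8 microglia and macrophage genes, 5 rose, where 5.52% of all genes were called higher, and the median change was 1.34. The endotoxin co-receptor Cd14 changed by 4.54 and the pan-leukocyte gene Ptprc by 1.52, while the 3 that were not called, Csf1r, Cx3cr1 and P2ry12, had changes of -0.09, -0.15 and -0.63. Of 6 astrocyte genes, Gfap, the astrocyte intermediate filament, rose by 0.77 ± 0.16 and the others were not called, with a median of -0.07 for the list. Aldh1l1 was also called without caudal array 271 (0.68; adjusted p = 0.00479).

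Among the 14 general neuronal genes, 3 fell (Elavl4, Map2 and Nefl) and none rose, where 7.02% of all genes were called lower, and all 14 had negative changes, with a median of -0.45. Elavl4, an RNA-binding protein of neurons, changed by -0.51, Map2, a dendritic microtubule protein, by -0.40, and the neurofilament gene Nefl by -0.31. Without caudal array 271, 5 of the 14 were called lower, where 8.88% of all genes were. Map2 was then not called (-0.26; adjusted p = 0.0752), and Nefh (-0.37), Rbfox3 (-0.30) and Uchl1 (-0.26) were called besides Elavl4 and Nefl. The median was then -0.24. With both arrays numbered 283 left out, 1 of the 14 was called lower. Of 6 measured inhibitory neuron genes none was called over all arrays, and their median shift was -0.70 on array 271, against -0.17 to -0.02 on the other 3 arrays. Without array 271, Slc32a1, the vesicular transporter of GABA and glycine, was called (-0.32; adjusted p = 0.0295). Of 8 measured sensory ganglion genes none was called over all arrays, with a median of -0.33, and their median shift from sham spanned -0.61 to -0.22 over the 4 arrays. Without array 271, P2rx3, an ATP receptor of sensory neurons, was called (-0.36; adjusted p = 0.0418). Of 7 excitatory neuron genes, Nts, the neurotensin gene, rose by 0.83 ± 0.22, while Slc17a6 changed by -0.36 and was not called (adjusted p = 0.128). The median shift of that list was -0.11 to 0.25 over the 4 arrays. Of 5 measured sympathetic and catecholamine genes, Th fell by 0.62 ± 0.19, and it was not called without array 271 (-0.50; adjusted p = 0.0751). Ddc of the same list went the other way, by 0.93, and was not called (adjusted p = 0.0506). The median shift of that list was 0.01 to 0.56 over the 4 arrays. Of 6 Schwann cell genes, Pou3f1 rose by 1.72 ± 0.33, while the myelin protein gene Pmp2 changed by -0.94 and was not called (adjusted p = 0.131). The median shift of that list was 0.07 to 0.40 over the 4 arrays. Of 5 measured oligodendrocyte genes none was called. Of 10 heart muscle genes, 4 rose, including Actc1 at 2.19 and Tnnt2 at 1.72, and Ryr2, a calcium release channel also expressed in neurons, fell by 0.66, with a median of 1.30. Ryr2 was not called without array 271 (-0.48; adjusted p = 0.0501). Above T6 at 48 h, Actc1 and Tnnt2 rose by 6.32 and 5.17, more than below it. The part of these cells in the changes of the motor neuron genes was not tested.

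**Figure D3:**
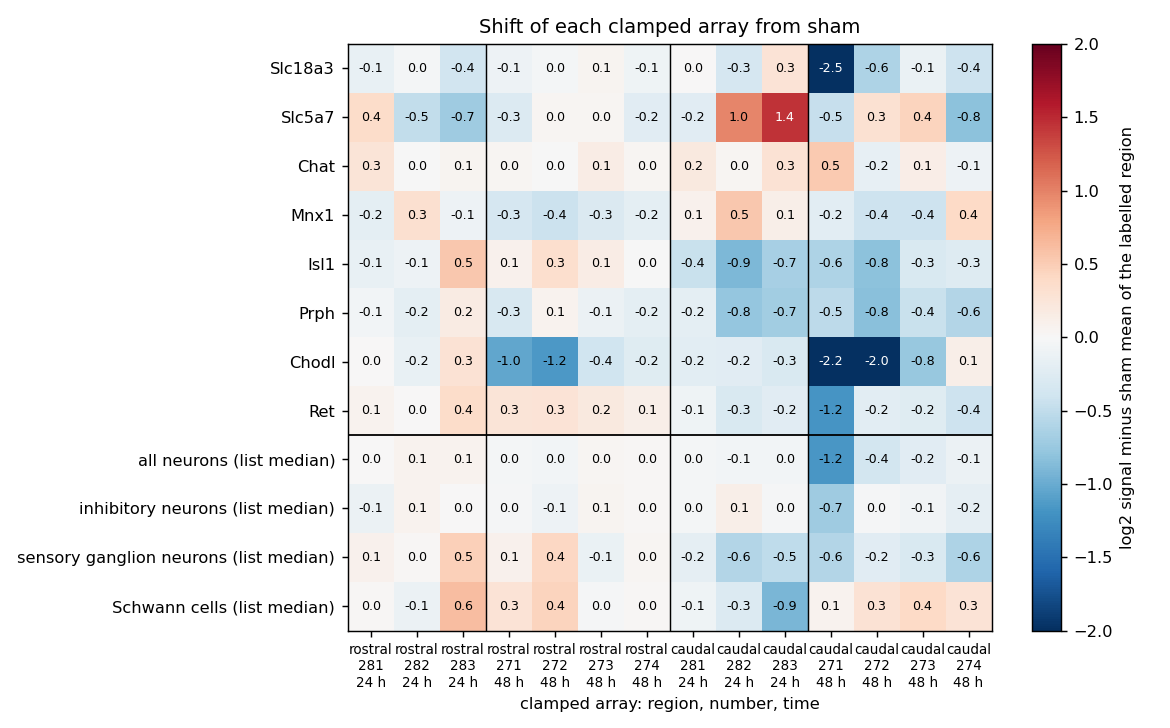
Log2 difference from the sham mean of the labelled region (colour scale and number in each cell) for each of the 14 clamped arrays (horizontal axis), for the 8 motor neuron genes and for the medians of 4 marker lists (vertical axis). Caudal array 271 has the lowest median for general neuronal genes, at -1.16, and Chodl is low on arrays 271 and 272 in both regions.

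Other genes of the motor neuron were read in the same comparison. Of 16 measured transcription factors of motor neuron development and subtypes, 2 fell and none rose, where 7.02% of all genes were called lower and 12.5% in either direction, and the median was -0.12. Without both arrays numbered 283, 1 of the 16 was called lower. Esrrg, an orphan receptor enriched in gamma motor neurons, fell by 0.61 ± 0.16 (adjusted p = 0.0188). Olig2, a motor neuron progenitor factor that in the adult cord marks the oligodendrocyte lineage, fell by 0.95 ± 0.28 (adjusted p = 0.0325), and its change was -0.71 without caudal array 271 (adjusted p = 0.0639). Of 15 measured genes of motor neuron subtypes, Fign, which encodes the microtubule-severing protein fidgetin, fell by 0.66 ± 0.17 and the kinase gene Stk32a rose by 0.40 ± 0.13. These 2 of 15 are also near the 12.5% of all genes called in either direction, and the median of the list was -0.25. Nos1, neuronal nitric oxide synthase, was also called lower (-0.32) and the small heat shock protein gene Hspb8 higher (0.34) without caudal array 271. With both arrays numbered 283 left out, 1 of the 15 was called lower and none higher.

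The other cholinergic synapse genes included 3 that fell and none that rose out of 13 measured, where 7.02% of all genes were called lower, with a median of -0.21. Prima1, the membrane anchor of acetylcholinesterase, changed by -1.04 ± 0.20 (adjusted p = 0.00301), and by -0.77 without caudal array 271. Bche, butyrylcholinesterase, changed by -0.69 ± 0.19 and the nicotinic receptor subunit gene Chrnb2 by -0.34 ± 0.10. Of the 11 trophic factor receptor genes of motor neurons, Kdr (a VEGF receptor, abundant in endothelium) fell by 0.51 ± 0.13 and Ngfr (the p75 neurotrophin receptor, abundant in Schwann cells) fell by 0.86 ± 0.24. These were 2 of 11, where 7.02% of all genes were called lower, and the median of the list was -0.42, or -0.20 without caudal array 271.

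Above T6 at 48 h, none of the 8 motor neuron genes was called against sham, where 0.61% of all genes were called. Chodl read 8.95, 9.13, 9.15 and 8.87 on rostral sham arrays 277 to 280, and 7.98, 7.88, 8.63 and 8.79 on rostral 48 h arrays 271 to 274. All 4 arrays after clamping lay below all 4 sham arrays, and arrays 271 and 272 were the lowest, as they were below T6. The change was -0.71 ± 0.35 (95% interval -1.44 to 0.02; adjusted p = 0.734). With arrays weighted by their quality in the fit it was -0.79 (adjusted p = 0.00842). Chodl was 1 of 8 genes lower without overlap, where 7.46% of all genes were. On the same rostral 48 h arrays the heart muscle genes were shifted by 2.06 to 4.84, and Actc1 (6.32) and Tnnt2 (5.17) were called higher. The part of the heart muscle genes in the Chodl difference was not tested.

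The changes of the other motor neuron genes above T6 at 48 h were all smaller than that of Chodl. Slc18a3 read 9.499, 9.58, 9.55 and 9.46 in rostral sham and 9.42, 9.48, 9.58 and 9.43 at 48 h, and the groups overlapped. Its change was -0.04 (95% interval -0.72 to 0.63). The change was 0.21 ± 0.16 for Ret, whose arrays lay above sham without overlap (1 of 8 genes, against 4.63% of all genes), -0.14 for Prph, 0.14 for Isl1, -0.11 for Slc5a7, -0.31 for Mnx1 and 0.06 for Chat. None of the measured genes of the lists of transcription factors, subtype genes, cholinergic synapse genes and trophic factor receptors was called above T6 over all arrays. The ligand gene Wnt7a of the subtype list was called without caudal array 271 (-0.75; adjusted p = 0.0258, against 0.257 over all arrays), where 0.989% of all genes were called lower. Of the sympathetic and catecholamine genes, Ddc, the enzyme that follows Th in catecholamine synthesis, rose by 1.26 ± 0.28 (adjusted p = 0.0441).

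Whether the 48 h change differed between the regions was tested as a difference of differences. None of the 8 motor neuron genes was called, where 0.561% of all genes were. Ret had the smallest p among them, with a difference of -0.72 ± 0.23 (95% interval -1.20 to -0.25; adjusted p = 0.219), which was -0.50 and called without caudal array 271 and both arrays numbered 283 (adjusted p = 0.0442; 0.346% of all genes were called lower in that fit). It was also called without caudal arrays 271, 274 and 280 (-0.51; adjusted p = 0.0372), where the share of all genes was not worked out. The difference was -0.65 for Isl1 (adjusted p = 0.323), -0.46 for Prph (adjusted p = 0.384), -0.87 for Slc18a3 (adjusted p = 0.42) and -0.51 for Chodl (adjusted p = 0.57). For Slc18a3 and Chodl it was -0.35 and -0.19 without caudal array 271. It was 0.14 for Mnx1, 0.04 for Chat and -0.02 for Slc5a7. A larger change below T6 than above it was thus not shown for any of these genes over all arrays. For the 24 h change, the region difference was called for none of the 8 genes, and for 0% of all genes. It was 1.02 ± 0.52 for Slc5a7, -0.77 ± 0.26 for Isl1 and -0.53 ± 0.21 for Prph, and 0.44, -0.55 and -0.36 without both arrays numbered 283. For the other 5 genes it was -0.35 (Ret), -0.29 (Chodl), 0.23 (Mnx1), 0.17 (Slc18a3) and 0.07 (Chat). On the other Ret probe set it was 0.06.

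At 24 h, none of the 8 motor neuron genes was called below T6 (0.0055% of all genes) or above it (0% of all genes). Below T6, Prph read 9.93, 9.35 and 9.43 and Isl1 read 6.68, 6.21 and 6.44 on caudal 24 h arrays 281 to 283. Both genes had lower means than in caudal sham, and only Isl1 did so without overlap, since the highest Prph array lay at the level of sham array 280. The change was -0.56 ± 0.15 for Prph (95% interval -0.87 to -0.24) and -0.67 ± 0.19 for Isl1 (95% interval -1.07 to -0.28), both with an adjusted p of 0.9998. The other Isl1 probe set changed by -0.40, and the other 3 of Prph, at low signal, by 0.07 to 0.10. Without both arrays numbered 283 the changes of the probe sets used were -0.48 for Prph and -0.67 for Isl1. The sensory ganglion genes shifted by -0.58 to -0.19 on the same 3 arrays, and their part in these differences was not tested. Isl1 and Chodl were lower without overlap, 2 of 8 genes, where 10.5% of all genes were, and Mnx1 was higher without overlap, 1 of 8 genes, where 8.65% were.

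Slc5a7 read 6.54, 7.73 and 8.20 on caudal 24 h arrays 281 to 283. The highest value was on the array labelled caudal 283, whose Hoxc10 was at the level of rostral cord. Its change against caudal sham was 0.73 ± 0.38, and 0.38 without both arrays numbered 283. Slc18a3 read 9.29, 8.94 and 9.55 and Chodl read 9.10, 9.08 and 9.01 on these arrays, and the changes were -0.02 and -0.24, or -0.16 and -0.22 without the arrays numbered 283. The changes of Ret, Mnx1 and Chat were -0.21, 0.24 and 0.17, and the other Ret probe set changed by 0.16. Above T6 at 24 h, the changes were -0.28 for Slc5a7, -0.19 for Slc18a3, 0.10 for Chat, 0.0092 for Mnx1, 0.10 for Isl1, -0.03 for Prph, 0.04 for Chodl and 0.15 for Ret. Without both arrays numbered 283 they ran from -0.13 (Isl1 and Prph) to 0.13 (Chat), with Slc5a7 at -0.07 and Ret at 0.04.

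The difference between 48 h and 24 h was not called for any of the 8 genes below T6 (6.69% of all genes were called) or above it (0.363%). Below T6, it was -0.97 ± 0.37 for Chodl (adjusted p = 0.121), -0.90 ± 0.35 for Slc18a3 (adjusted p = 0.123) and -0.86 ± 0.35 for Slc5a7 (adjusted p = 0.141). Without caudal array 271 it was -0.65 for Chodl and -0.37 for Slc18a3, and without both arrays numbered 283 it was -0.51 for Slc5a7. With all 3 of these arrays left out it was -0.22 for Slc18a3 and -0.40 for Slc5a7. It was -0.41 for Mnx1, -0.31 for Ret (-0.09 without caudal array 271) and -0.08 for Chat. Without caudal arrays 271, 274 and 280, Chodl (-1.15; adjusted p = 0.0105) and Mnx1 (-0.66; adjusted p = 0.00649) were called, with no share of all genes worked out. It was -0.05 for Prph (95% interval -0.34 to 0.25) and 0.17 for Isl1 (95% interval -0.20 to 0.54). On the other probe sets it was -0.15 for Isl1 and -0.73 for Ret, neither called. Above T6, Chodl differed by -0.75 ± 0.37 (adjusted p = 0.991), with its 48 h arrays below all 3 of the 24 h arrays. That made 1 of 8 genes lower without overlap, where 6.33% of all genes were. The others above T6 differed by -0.32 (Mnx1), 0.17 (Slc5a7), 0.15 (Slc18a3), -0.11 (Prph), 0.06 (Ret), 0.05 (Isl1) and -0.05 (Chat), and without both arrays numbered 283 Slc5a7 was at -0.04, Isl1 at 0.27 and Ret at 0.17.

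The regions also differed in sham animals. Isl1 was higher below T6 by 0.92 ± 0.18 (SE; 95% interval 0.55 to 1.29; adjusted p = 0.0241; n = 3 against 4), and it was 1 of 8 genes called higher, where 0.33% of all genes were called higher and 0.335% in either direction. Its signal was 6.17, 6.14, 6.41 and 6.08 on rostral sham arrays 277 to 280, against 7.25, 7.28 and 6.82 on the caudal ones. The groups were well apart. The call was nevertheless lost when any one of the sham arrays other than caudal 280 was left out (rostral 277 to 280, caudal 278 and 279), with differences of 0.83 to 0.99 and adjusted p-values of 0.0521 to 0.184. It was also lost with the title number as a fixed replicate block (difference 0.91, adjusted p = 0.324). With the number as a random block Isl1 was called (adjusted p = 0.0151). The other Isl1 probe set differed by 0.60 and was not called (adjusted p = 0.117 in a fit of every probe set). Prph read 9.43, 9.56, 9.62 and 9.42 on the rostral sham arrays, below all caudal ones, and differed by 0.61 ± 0.14 (adjusted p = 0.0777). That difference was called without caudal array 271, which entered through the pooled spread alone (adjusted p = 0.0362), so that 2 of 8 genes were called higher, where 0.967% of all genes were. The other 3 Prph probe sets, at low signal, differed by only -0.12 to 0.01, and none was called. Ret read 9.49, 9.67, 9.49 and 9.60 on the rostral sham arrays and differed by 0.35 ± 0.17 (adjusted p = 0.912), which was called without caudal array 271 and both arrays numbered 283 (adjusted p = 0.0459). The share of all genes called in that fit is not given here. The other Ret probe set differed by only -0.03 (95% interval -0.57 to 0.51) and was not called.

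The cholinergic genes ran the other way in sham, without passing the test. Slc5a7 read 7.41, 8.004, 8.17 and 7.91 on rostral sham arrays 277 to 280, above every caudal sham array. The caudal minus rostral difference was -1.11 ± 0.35 (adjusted p = 0.432). It was called when only the sham arrays were fitted (adjusted p = 0.0039). Slc18a3 differed by -0.24 ± 0.35, Mnx1 by -0.24, Chat by -0.14 and Chodl by 0.28. Isl1, Prph, Chodl and Ret were higher below T6 without overlap, 4 of 8 genes, where 12.1% of all genes were, and Slc5a7 and Slc18a3 were lower, 2 of 8, where 8.67% were. The other Ret probe set overlapped, at 8.02 to 8.49 on the caudal and 8.29 to 8.42 on the rostral sham arrays.

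Genes of sensory ganglia and of peripheral glia were higher in the same caudal sham arrays. Of 8 measured sensory ganglion genes (12 listed), 3 were higher and none lower over all arrays, with a median difference of 0.71. They were Pirt, a regulator of sensory ion channels, at 2.63, the sodium channel gene Scn11a at 2.78, and Avil, the actin regulator advillin, at 1.87. P2rx3 (0.45) was also called higher, and the neuropeptide gene Nmu of the excitatory neuron list (-0.54) lower, without caudal array 271. Of 6 measured Schwann cell genes (8 listed), 3 were higher, with a median of 0.96, including the myelin protein gene Pmp2 at 2.59 and the myelination factor Egr2 at 2.35. Ngfr was higher by 1.53 and Th, the rate-limiting enzyme of catecholamine synthesis, by 1.16. Of 14 general neuronal genes none was called. Isl1, Prph, Ret and Th are also expressed in peripheral ganglia, and the part of ganglion or root tissue in their sham levels, and so in their change against caudal sham, was not tested.

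**Figure D4:**
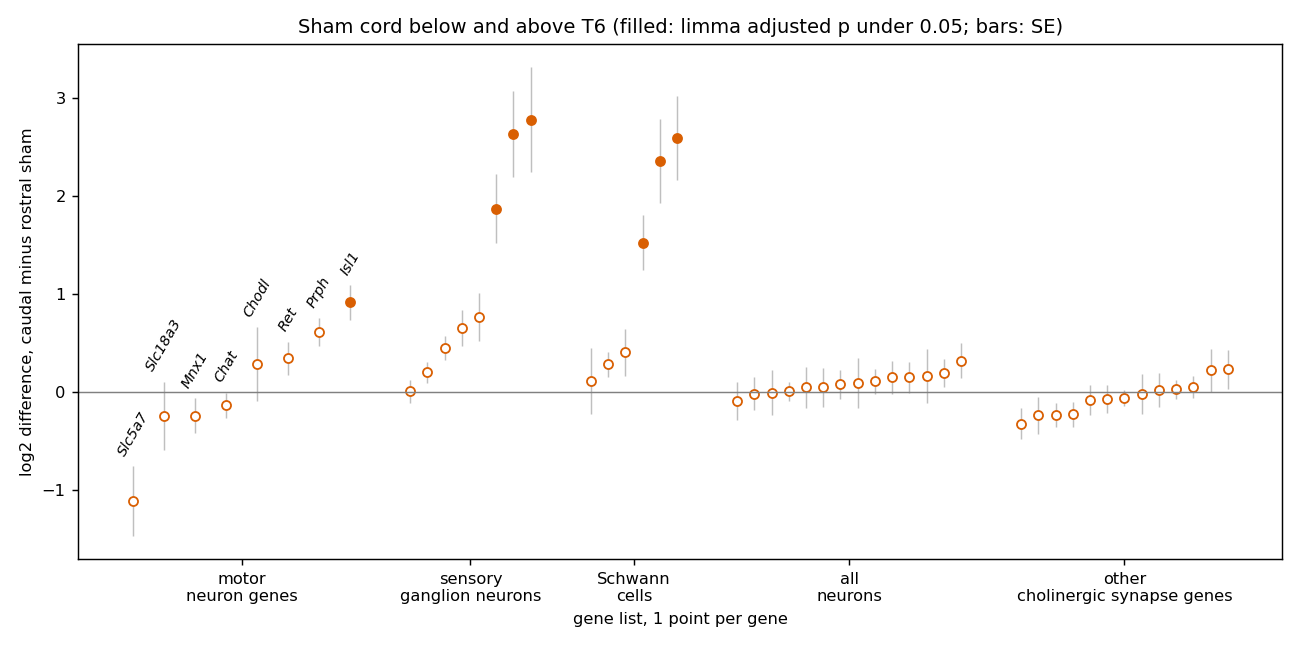
Log2 difference between caudal and rostral sham cord (vertical axis, above 0 is higher below T6) for each measured gene of 5 lists (horizontal axis). Bars are SE and filled points were called. Isl1, at 0.92, is the only filled motor neuron gene, and 3 sensory ganglion genes and 3 Schwann cell genes are filled between 1.52 (Ncmap) and 2.78 (Scn11a).

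After clamping at 48 h, the cholinergic transporters were lower below T6 than above it. Slc5a7 differed by -1.14 ± 0.33 and Slc18a3 by -1.11 ± 0.32 (adjusted p = 0.0354 for each). That made 2 of 8 genes called lower, where 4.14% of all genes were called lower and 9.71% in either direction. For Slc5a7, the rostral 48 h arrays read 7.59, 7.91, 7.91 and 7.64, above all caudal 48 h arrays. The region difference of Slc5a7 at 48 h minus that in sham was -0.02 (95% interval -1.03 to 0.99). For Slc18a3, the rostral arrays lay between 9.42 and 9.58 and all caudal arrays lay lower. Slc5a7 and Slc18a3 were lower without overlap, 2 of 8 genes, where 6.26% of all genes were. Without caudal array 271, the difference was -0.59 for Slc18a3, still called (adjusted p = 0.00566; 4.81% of all genes were called lower in that fit), and -1.02 for Slc5a7, not called (adjusted p = 0.0681). Without both arrays numbered 283, Slc18a3 was not called (adjusted p = 0.0516), and neither gene was called without any one of the rostral 48 h arrays 271 to 274 (adjusted p = 0.0545 to 0.0999 over both genes). Slc5a7 was not called without caudal array 274 either (-0.90; adjusted p = 0.0612), and its difference was -0.62 without caudal arrays 271, 274 and 280 (adjusted p = 0.247). Chodl differed by -0.22 between the regions at 48 h (95% interval -0.95 to 0.50), and by 0.10 without caudal array 271. Ret differed by -0.38 (-0.16 without caudal array 271), Isl1 by 0.27, Prph by 0.15, Mnx1 by -0.10 and Chat by -0.10 (-0.24 without caudal array 271), and none of these was called. The other Ret probe set differed by -0.78 (adjusted p = 0.0525) and the other Isl1 probe set by -0.08, and neither was called. The 4 pairs of same-numbered 48 h arrays deviated together, and with the number as a fixed replicate block Slc18a3 was called (adjusted p = 0.0394) and Slc5a7 was not (adjusted p = 0.0575). Slc5a7 was low on caudal arrays 274 and 280, the arrays with low 5′ Gapdh signal, and the part of RNA quality in its differences was not tested.

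The genes most like Chodl over the 21 grouped arrays were Mob3b, Abca9 and 2310022B05Rik. Likeness was measured as the root mean square difference of log2 signals after each gene was centred on its own mean, and it was 0.218 for Mob3b, 0.224 for Abca9 and 0.249 for 2310022B05Rik, where the SD of Chodl itself over these arrays was 0.659. For Chat, whose signal was low, the nearest genes were Fgf6 at 0.0703, 4930431F12Rik at 0.0899 and Igfbpl1 at 0.0942, where the SD of Chat was 0.163. These arrays share the groups and the low-quality arrays, so the likeness is a description.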

How the data were processed

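The deposited values are log2 signals of 45101 probe sets on 22 Affymetrix mouse arrays, made by the authors with RMA per the submitters' processing notes, with no version given. RMA corrects background and quantile normalises the arrays together, so a compressed array can be pulled toward the rest. Of the probe sets, 64 were controls, 9160 had no symbol listed in the platform annotation, 932 had several and 34945 had 1. The one with the highest mean over all 22 arrays stood for each of 18193 genes. A mean was fitted for each of 6 groups over 21 arrays with limma 3.58.1 in R 4.3.3 (lmFit, eBayes, 18.7 degrees of freedom with the prior). Tests were two-sided, with p-values adjusted over all genes for each comparison by Benjamini-Hochberg, and genes under 0.05 were called. Comparisons that share a sham or clamped group are not independent. Scripts were tested on simulated data. Arrays carry no read depth, and their number limits the precision.

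Groups came from the labels. Rostral array 276, labelled both 24 h and 48 h, was in no group. Title numbers were not used as pairs in the reported fit. Deviations of same-numbered rostral and caudal arrays correlated at 0.246 to 0.534 for the 4 numbers at 48 h, which pairs that comparison. They correlated at 0.0866 to 0.282 in sham, where 278 and 279 correlated best within their own number and 280 did not. At 24 h the correlations were -0.45 to -0.0287. The 24 h group means include the arrays numbered 283, which read against their region labels, so the 24 h values cannot decide pairing. The members and lists were chosen with earlier results of these data known. By rule, the members were named in every comparison, and of each other list the 2 genes with the smallest p in the caudal 48 h, rostral 48 h and sham comparisons; those of the rule that were not called are mostly given only as counts. Nefl, Nefh, Rbfox3, Uchl1, Nos1, Hspb8, Chrnb2, Scn11a, Ncmap, Ryr2, Csf1r, Cx3cr1, P2ry12 and Nmu were named after their values were seen. Alternatives left out each array or the arrays that stood apart, and changed the probe set rule, scaling, signal filter, variance model, samples fitted and block. The fit without caudal array 271 and both arrays numbered 283 was chosen after seeing the data. Other probe sets were a check set by rule and were fitted for Isl1, Prph and Ret. Which of their values are given was decided after they were seen. Promoter sequences are RefSeq's.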

Additional observations from a re-analysis of the deposited data

How the results depend on the processing

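Outside the fits that left out 1 array, 12 values changed sign, 18 newly passed and 19 no longer passed the threshold, and 519 kept their direction and side. In the fits that left out 1 array, 15 changed sign, 7 newly passed and 48 no longer passed, and 938 kept both. With 1 array left out, the motor neuron genes called ranged from 0 to 5 for caudal 48 h against sham, from 0 to 3 for caudal 48 h against 24 h, and from 0 to 2 for the sham regions and the 48 h regions, and stayed at 0 in the remaining comparisons. For caudal 48 h against sham, the count was 1 without both arrays numbered 283, 5 with array weights and 0 with the compared groups alone. With array weights it was 1 for rostral 48 h against sham, 2 for caudal 24 h against sham, 2 for caudal and 1 for rostral 48 h against 24 h, 4 for the sham regions, 1 for the 48 h regions and 1 for the region difference at 48 h. Without caudal arrays 271, 274 and 280 it was 2 for caudal 48 h against 24 h, 2 for the sham regions, 1 for the 48 h regions and 1 for the region difference at 48 h. Without caudal array 271 and both arrays numbered 283 it was 3, 1 and 1 for the last of these 3. With the brighter genes only it was 0 for the sham regions, where Isl1 was filtered out, and 1 for the 48 h regions. With the compared groups alone it was 4 and 0. The share of all genes called was worked out only over all arrays and without caudal array 271, both arrays numbered 283, or all 3. The counts of the other fits cannot be set against such a share, so they are not results particular to the motor neuron genes. With title numbers as a replicate block, the count for the sham regions was 2 as a random block and 0 as a fixed block, where Isl1 was lost, and that for the 48 h regions was 1 as a fixed block, where Slc5a7 was lost, and arrays of the same number correlated best with each other for 6 of 10 numbers. Sham number 280 and the 24 h numbers 281 to 283 did not, and the 24 h values cannot decide pairing because of the arrays numbered 283. The labels do not say what the numbers mark. Signs changed among small values. At caudal 48 h, Chat spanned -0.047 to 0.18 and Slc5a7 -0.33 to 0.098 over the fits that left out 1 array; Chat was -0.047 without caudal array 271 and both arrays numbered 283, and Slc5a7 was 0.21 without caudal arrays 271, 274 and 280 and 0.32 with array weights. Over the fits that left out 1 array at caudal 24 h, Slc18a3 spanned -0.16 to 0.14, and it was 0.014 with quantile normalisation repeated. The same fits at rostral 24 h gave -0.14 to 0.11 for Mnx1, -0.13 to 0.22 for Isl1, -0.13 to 0.0499 for Prph and -0.074 to 0.14 for Chodl; Mnx1 was -0.0057 with centred arrays, Isl1 was -0.13 and Chodl -0.074 without both arrays numbered 283, with or without caudal 271, and Chodl was -0.013 with array weights. Chodl between the 48 h regions spanned -0.66 to 0.098 with 1 array left out, and was 0.098 without caudal array 271 and both arrays numbered 283 and 0.17 with array weights. The cause was not tested. Chat and Mnx1 were dim, so their changes are the least measurable of the 8.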

Other observations

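Rostral array 276 was in no group because its labels give both 24 h and 48 h. Its log2 signal was 9.16 for Slc18a3, 7.003 for Slc5a7, 5.89 for Chat, 5.13 for Mnx1, 6.46 for Isl1, 9.51 for Prph, 9.04 for Chodl and 9.65 for Ret. Its Chodl signal lay within the range of the rostral sham and 24 h arrays and above all 4 rostral 48 h arrays, while the median shift of its heart muscle genes from rostral sham was 4.75, within the range of the rostral 48 h arrays.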
